A study of Mus musculus with 9 samples.

Results

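The IFITM genes considered here are Ifitm1, Ifitm2, Ifitm3 and Ifitm6, 4 of the 19454 genes listed for sorted mouse haematopoietic stem cells (HSCs). They were picked by symbol, with their differences between groups already known, so their own values are given as a description, and nothing is read from where they fall against the threshold of the test. All 4 passed the filter on low counts that 14461 genes passed. HSCs are the rare self-renewing bone marrow cells from which the blood lineages arise. Each library was made from the polyadenylated RNA of 1500 sorted cells with 12 cycles of PCR.

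All 9 libraries came from bone marrow of wild type mice, 3 per group. For the control group the labels name no treatment. In the inhibited mice the mPFC and PAG brain regions were silenced chemogenetically, that is, through an engineered receptor switched on by a drug, and the library names of both inhibited groups carry AAV, a viral vector. The third group had the same inhibition with a supplement of spermidine, a natural polyamine. Per its title, the study asks how psychological stress bears on HSC ageing by way of spermidine from gut microbes. Age, sex, vector, drug, dose and duration are not given in the sources used here, and the control labels name neither virus nor drug, so these and silencing cannot be told apart. Separate mice are not named as the source of the libraries, so p-values measure the spread between libraries, which may be technical.

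IFITM proteins (interferon-induced transmembrane proteins) are small membrane proteins that hinder the fusion of enveloped viruses with cell membranes. Ifitm3 and Ifitm2 act mainly in endosomes, whereas Ifitm1 is found more at the cell surface. Interferons raise several of these genes through IRF and other transcription factors, and stem cells are known to carry some of them without an added interferon signal. Ifitm6 is known from myeloid cells.

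In the GENCODE M21 annotation of mm10 the members lie in 1 cluster on chromosome 7, with Ifitm5 at its edge (140948958 to 141017924, 69.0 kb). Ifitm2 (ENSMUSG00000060591) spans 140954837 to 140955987 on the minus strand. Ifitm1 (ENSMUSG00000025491) spans 140967221 to 140969825 on the plus strand. Ifitm3 (ENSMUSG00000025492) lies at 141009586 to 141010770 and Ifitm6 (ENSMUSG00000059108) at 141015699 to 141017924, both on the minus strand.

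The sequences just upstream of the RefSeq start sites are shown because these neighbours with related proteins behaved differently in the libraries. They come from RefSeq promoter windows on GRCm38.p6 (the mm10 build), found for 4 of 4 members, each running from 250 bases before the start site to 50 after it. Bases that GENCODE M21 places in an exon of the gene are left off, which leaves chr7:140967826-140968027 on the plus strand and chr7:140955988-140956211, chr7:141010771-141010994 and chr7:141016909-141017142 on the minus strand. The Ifitm1 and Ifitm6 stretches lie inside the GENCODE gene span, in an intron of longer transcripts that begin farther upstream, and those of Ifitm2 and Ifitm3 lie outside it. Capitals mark a match to the core of the interferon-stimulated response element, GAAA followed after any 2 bases by GAAA again (called the GAAA pair here).
Ifitm1: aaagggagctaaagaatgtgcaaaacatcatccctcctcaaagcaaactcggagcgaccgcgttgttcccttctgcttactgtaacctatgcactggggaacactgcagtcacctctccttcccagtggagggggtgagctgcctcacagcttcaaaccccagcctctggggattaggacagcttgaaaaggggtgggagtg
Ifitm2: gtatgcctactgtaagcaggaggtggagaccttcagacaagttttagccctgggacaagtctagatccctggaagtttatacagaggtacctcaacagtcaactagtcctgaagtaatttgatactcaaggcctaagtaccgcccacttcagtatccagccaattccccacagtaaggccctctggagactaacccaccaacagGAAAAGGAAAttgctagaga
Ifitm3: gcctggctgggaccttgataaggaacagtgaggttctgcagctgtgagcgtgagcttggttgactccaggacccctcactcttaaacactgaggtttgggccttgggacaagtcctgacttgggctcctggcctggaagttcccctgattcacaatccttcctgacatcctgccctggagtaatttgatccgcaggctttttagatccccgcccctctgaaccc
Ifitm6: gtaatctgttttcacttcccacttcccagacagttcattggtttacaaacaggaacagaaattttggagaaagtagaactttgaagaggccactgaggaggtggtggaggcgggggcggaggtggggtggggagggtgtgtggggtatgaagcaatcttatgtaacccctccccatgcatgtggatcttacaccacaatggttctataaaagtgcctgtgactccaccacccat

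Ifitm2 held 1 GAAA pair, beginning 46 bases upstream of its start site (chr7:140955998-140956007). Ifitm3 held 2, both within the 50 bases after its RefSeq start site. They begin at positions 3 and 20 counted from 1 at the start site (chr7:141010733-141010742 and chr7:141010716-141010725). A search for TTCNNNGAA, the gamma-activated sequence of interferon gamma responses, found 1 match in Ifitm3 at position 14 (chr7:141010723-141010731), which overlaps the second GAAA pair. It also found 1 match in Ifitm6, beginning 10 bases upstream of its start site (chr7:141016894-141016902). No match to either motif was found in the Ifitm1 window. The matches are shown in capitals with their flanks.
Ifitm2 GAAA pair: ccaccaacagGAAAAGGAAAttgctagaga
Ifitm3 first GAAA pair: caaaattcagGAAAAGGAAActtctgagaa
Ifitm3 second GAAA pair: aaacttctgaGAAACCGAAActgccgcaga
Ifitm3 TTCNNNGAA: aaaaggaaacTTCTGAGAAaccgaaactgc
Ifitm6 TTCNNNGAA: ccatatgaacTTCCTTGAAacaagagcttc

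Both strands were searched, and all matches were on the strand of the gene (TTCNNNGAA is its own reverse complement). Among 32851 promoter windows of 300 bases, 3.44% held a GAAA pair and 8.3% held TTCNNNGAA. The Ifitm2 pair and the first Ifitm3 pair had the same letters, GAAAAGGAAA. Between the upstream stretches of 250 bases the longest run of identical bases was 11, tgggacaagtc, shared by Ifitm2 and Ifitm3, and the other pairs shared runs of 7 to 9 bases. A match describes the letters of this window and not a bound site.

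The 9 libraries held 16096276 to 25360256 estimated counts each. Libraries of a group correlated at 0.989 to 0.993 (Pearson, across genes, on log2 CPM, counts scaled to library size with TMM factors), and no pair of them differed by less than the sampling noise. Some HSC genes were scarce in the control libraries, and others were not. Procr (the protein C receptor) had 1, 3 and 3 counts there. Hlf, an HSC transcription factor, averaged 2.50 CPM and Ly6a, which encodes Sca-1, averaged 6.21 CPM. In the inhibition libraries Hlf averaged 22.3 and Ly6a 83.5 CPM, and with spermidine 37.6 and 94.5 CPM. Gata2, another HSC transcription factor, went the other way, at 56.4, 9.54 and 14.5 CPM in control, inhibition and spermidine libraries. Of 36 HSC genes 19 were higher and 14 lower under inhibition than in control. Their sum was 1162 to 1174 CPM in control, 947 to 980 under inhibition and 1253 to 1270 with spermidine. Genes of other blood cells were present in all libraries: 20 late neutrophil genes summed to 2021 to 2060 CPM in control, 54110 to 55199 in inhibition and 17888 to 18311 with spermidine, with none of the 20 at 0 in any group. Megakaryocyte genes summed to 3040 to 3067 CPM in control but 191 to 202 in inhibition and 192 to 201 with spermidine. B and plasma cell genes summed to 88.5 to 89.8, 4627 to 5042 and 1759 to 1901 CPM in the same order. The libraries labelled HSC thus differed in markers of several cell types between the groups. In bulk RNA, fewer cells of a type and less RNA per cell cannot be told apart.

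Ifitm1, which encodes the surface member, was low in control and high in both other groups. Its TPM (a transcript level scaled for gene length and library depth) was 260.1, 269.1 and 265.5 in the control libraries. In the inhibition libraries it was 2070, 2067 and 2159, and with spermidine 2754, 2790 and 2804. The 3 groups did not overlap, and the libraries of each lay within a few percent of each other. In CPM the means were 250.2 ± 1.18, 1629.9 ± 54.7 and 1795 ± 22.0 (SD, n = 3 each). The log2 fold change of inhibition against control was 2.70 (SE 0.030), a 6.51-fold difference and the 96.0th percentile of all genes tested. Spermidine against inhibition gave a log2 fold change of 0.14 (SE 0.028), and against control 2.84 (SE 0.030), or 7.17-fold. With spermidine Ifitm1 thus stood above its level under inhibition. The size of that log2 fold change depended on the scaling, at 0.40 by total count and 0.41 in TPM. With TMM factors it stood at the 59.1 percentile of all genes tested. The median of all genes in this comparison was itself 0.288 by total count, and 0.182 or 0.315 in TPM, depending on the pseudocount.

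Ifitm6 had the largest fold difference of the 4. It was the only one of them whose spermidine libraries lay between the other groups without overlap in both TPM and CPM. The spermidine mean of Ifitm3 also lay between in TPM (1452, 1305 and 1400 in control, inhibition and spermidine), but its libraries overlapped control. The TPM of Ifitm6 was 8.50, 10.3 and 9.66 in control, from 158, 213 and 199 counts. Under inhibition it was 437.3, 421.9 and 426.3, and with spermidine 151.7, 156.1 and 160.2. No library of one group reached the range of another. The mean CPM was 10.4 ± 0.930 in control, 421.9 ± 5.05 in inhibition and 124.5 ± 4.42 with spermidine (SD, n = 3 each). Inhibition against control gave a log2 fold change of 5.33 (SE 0.050), 40.3-fold and the 98.5th percentile of all genes tested. Spermidine against inhibition gave -1.76 (SE 0.036), 3.39-fold lower and at the 0.671 percentile, that is, among the lowest of all genes. With spermidine Ifitm6 remained 11.9-fold above control (log2 fold change 3.57, SE 0.052).

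Ifitm2, an endosomal member, was abundant everywhere and varied little. Its TPM was 1734, 1812 and 1703 in control, 2123, 2101 and 2281 under inhibition, and 2266, 2242 and 2218 with spermidine. Inhibition lay above control in every library, and in TPM the spermidine and inhibition libraries overlapped. Its CPM averaged 1571 ± 24.6, 1778 ± 95.1 and 1469.8 ± 12.5 (SD, n = 3 each), and on that scale the 3 groups did not overlap. The log2 fold changes were 0.18 (SE 0.033) for inhibition against control, -0.27 (SE 0.033) for spermidine against inhibition and -0.10 (SE 0.033) for spermidine against control. Both differences of the spermidine group depended on scaling. Against control the value turned to 0.17 when libraries were scaled by total count alone and to 0.36 in TPM, and against inhibition it turned to 0.049 in TPM and was -0.013 by total count.

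Ifitm3, the member best known for blocking influenza virus, was the only one lower under inhibition. Its TPM was 1481, 1504 and 1372 in control, 1299.8, 1296 and 1319 under inhibition, and 1349, 1397 and 1454 with spermidine. The inhibition libraries lay just below the lowest control library, and the spermidine libraries overlapped control in TPM. In CPM the means were 1374 ± 44.4, 1115 ± 39.8 and 985.3 ± 40.6 (SD, n = 3 each), without overlap. Log2 fold changes were -0.30 (SE 0.035) for inhibition against control, -0.18 (SE 0.035) for spermidine against inhibition and -0.48 (SE 0.035) for spermidine against control. The order of the spermidine group again depended on scaling: its difference from inhibition turned to 0.083 by total count and 0.10 in TPM, and its difference from control shrank to -0.052 in TPM. Total-count scaling moved the median of all genes by 0.26 on the log2 scale in both comparisons with the spermidine group and by 0.0017 in inhibition against control, a shift of the same order as the differences of these members.

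**Figure D1:**
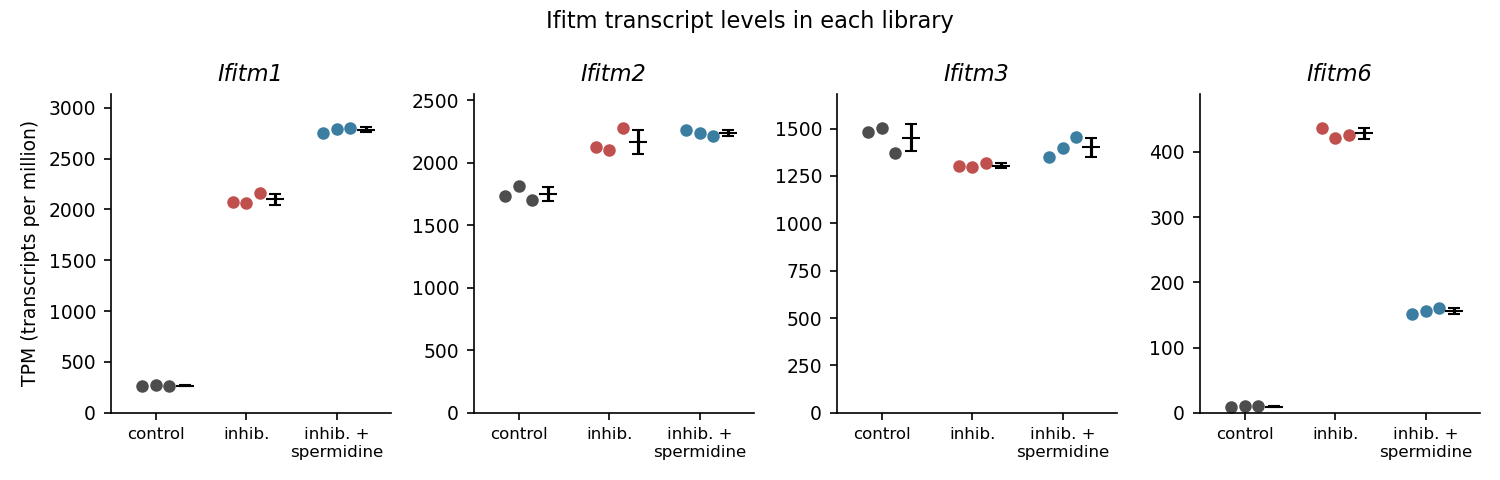
TPM (vertical axis, from 0, a separate scale for each gene) of Ifitm1, Ifitm2, Ifitm3 and Ifitm6 in each of the 9 libraries by group, with points for libraries and a bar with caps for the mean and SD of 3 libraries. Ifitm1 is high in both inhibition groups, Ifitm6 is highest under inhibition and between the other groups with spermidine, and the group means of Ifitm2 and Ifitm3 stay within 1.28-fold of their control means.

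Most genes of the table differed between the groups. Under inhibition against control, 3 members passed the threshold (edgeR's quasi-likelihood test, Benjamini-Hochberg adjusted p under 0.05) as higher and 1 as lower, where 72.4% of all tested genes passed, 36.2% as higher and 36.1% as lower. Spermidine against inhibition had 1 member higher and 3 lower, where 58.1% of genes passed, 29.1% as higher and 28.9% as lower. By total count the split of all genes in that comparison was 7711 higher and 1793 lower in place of 4213 and 4183. Spermidine against control had 2 higher and 2 lower, where 78.1% passed, 41% as higher and 37.1% as lower. By total count this split was 7705 to 3682 in place of 5930 to 5363. The members' groups did not overlap in CPM in any of the comparisons, as was so for 74.5%, 62.8% and 79.8% of genes in the same order. The rule used these contrasts, so nothing is read from the counts. The comparisons of both inhibition groups with control share the control libraries.

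The makeup of the summed IFITM transcripts changed accordingly. The 4 genes summed to 3483, 3596 and 3351 TPM in control, to 5930, 5886 and 6186 under inhibition, and to 6521, 6585 and 6636 with spermidine. These sums were 0.348%, 0.60% and 0.658% of the total to which TPM is scaled and did not overlap between groups. Ifitm1 held 7.63% ± 0.258 of the sum in control, 35.0% ± 0.119 under inhibition and 42.3% ± 0.0728 with spermidine (SD, n = 3 each). Ifitm2 held 50.3%, 36.1% and 34.1% in the same order, and Ifitm3 held 41.8%, 21.8% and 21.3%. Ifitm6 went from a share of 0.273% to 7.14% and stood at 2.37% with spermidine. Most of the added TPM was therefore that of Ifitm1.

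In control the order of TPM was Ifitm2, Ifitm3, Ifitm1 and Ifitm6, with no overlap between neighbours. Under inhibition Ifitm2 and Ifitm1 overlapped at the top, followed by Ifitm3 and Ifitm6. With spermidine Ifitm1 stood above Ifitm2, and Ifitm3 and Ifitm6 followed, again without overlap. Ranked among all listed genes, Ifitm1 moved from places 508 to 515 in control to 71 to 75 under inhibition and 55 to 57 with spermidine. Ifitm6 moved from places 3827 to 4159 to 377 to 388 and then 819 to 861. Ifitm2 stayed between places 64 and 101 and Ifitm3 between 111 and 132 in all 9 libraries.

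**Figure D2:**
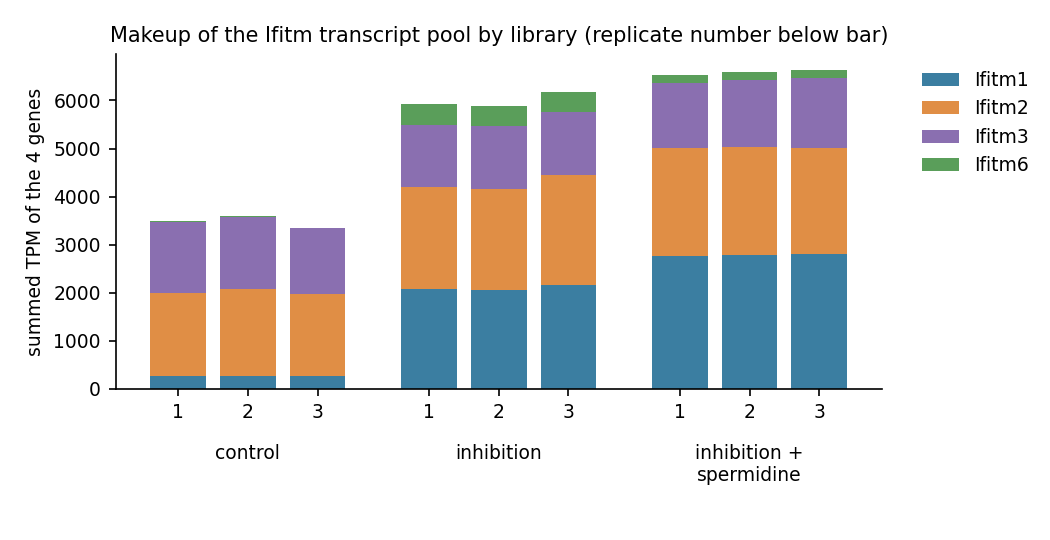
Stacked bars from 0 give the TPM of Ifitm1, Ifitm2, Ifitm3 and Ifitm6 in each of the 9 libraries, grouped as control, inhibition, and inhibition with spermidine. The Ifitm1 segment grows from 7.63% of the bar in control to 35.0% and 42.3%, while Ifitm6 is visible mainly under inhibition.

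Related genes could exchange reads during counting, and the members differ in how far this reaches. Of the 31-base stretches in the GENCODE M21 transcripts of Ifitm6, 0% of 873 occur in another gene, and its deposited counts were whole numbers in all 9 libraries. For Ifitm1 the share was 11.6%, mostly with the gene model Gm7676 and 3.26% with Ifitm3. For Ifitm3 it was 20.5%, including 6.02% with Ifitm2 and 5.4% with Ifitm1. Ifitm2 stood out with 55.5%. Of all its 625 stretches, 38.1% occurred in Gm45717 and 23.5% in Gm8865. Of 11 genes outside the Ifitm family that share such stretches, 2 are listed, with 399 summed counts or 0.0516% of the members' 772490. The levels of Ifitm1, Ifitm2 and Ifitm3 are thus less certain than that of Ifitm6, and the effect of read sharing on them was not tested.

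The other Ifitm genes of the mouse were barely expressed. Ifitm5, a gene of bone-forming cells that adjoins Ifitm2, averaged 0.641, 0.207 and 0.336 CPM in the 3 groups and was not tested. Ifitm7, on chromosome 16 (13981699 to 13986888, minus strand), averaged 0.965, 1.94 and 2.50 CPM. It rose under inhibition (log2 fold change 1.01, SE 0.22, edgeR adjusted p = 0.000635) and was higher with spermidine than in control (1.38, SE 0.21, edgeR adjusted p = 1.53e-05), and the difference between spermidine and inhibition did not pass (0.37, SE 0.18, edgeR adjusted p = 0.0899). These values rest on 15 to 64 counts per library. Of the 31-base stretches of Ifitm1, 1.3% also occur in Ifitm7, and the effect of read sharing on Ifitm7 was not tested. Ifitm10 averaged 0.164, 1.19 and 0.490 CPM, with 2, 5 and 2 counts in the control libraries. It rose under inhibition (edgeR adjusted p = 5.6e-06) and fell with spermidine against inhibition (log2 fold change -1.29, SE 0.29, edgeR adjusted p = 0.00137), the direction Ifitm6 took. Of 7 related genes of the dispanin superfamily 5 are listed and 1, Tmem91, could be tested. Tmem91 was at -0.28 (SE 0.22, edgeR adjusted p = 0.274) under inhibition and rose with spermidine against inhibition (0.91, SE 0.20, edgeR adjusted p = 0.000986).

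Ifitm1 was set beside 36 genes of HSC identity. Under inhibition 19 of them rose and 14 fell against control, with a median log2 fold change of 0.56 against 0.0205 for all genes tested. The list was therefore split, and Ifitm1 lay above 32 of its 36 genes. Genes that rose included Ly6a (3.75, SE 0.052), Hlf (3.15, SE 0.089) and Cd34 (2.59, SE 0.063), which encodes a progenitor surface protein. Cd34 had 8.37, 10.2 and 9.08 CPM in control, 55.0, 57.6 and 54.6 under inhibition and 82.1, 76.8 and 77.2 with spermidine. Gata2 fell by 2.57 (SE 0.067) and Gfi1b fell by 2.56 (SE 0.052), 2 transcription factors of HSCs that also act in the megakaryocyte and mast cell lineages. Each of these genes had an edgeR adjusted p of 4.4e-15 or smaller.

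With spermidine against inhibition 25 of the 36 genes rose and 1 fell (median 0.48 against 0.027 for all genes). The genes with the smallest p were Lmo2 (0.65), Hoxa9 (0.64), Hlf (0.75) and Meis1 (0.48), all transcriptional regulators of HSCs, with edgeR adjusted p of 1.2e-08 or smaller. Ifitm1, at 0.14, lay below 29 of the 36. The HSC genes summed to 1162 to 1174 CPM in control, 947 to 980 under inhibition and 1253 to 1270 with spermidine. Per 1000 counts of that list there were 214 ± 1.81 counts of Ifitm1 in control, 1699 ± 80.3 under inhibition and 1423 ± 23.4 with spermidine (SD, n = 3 each). Ifitm1 thus did not keep a fixed ratio to the list as a whole. Against control the spermidine group had 25 of the genes higher and 9 lower, median 0.815 against 0.0597 for all genes, and Ifitm1 lay above 30 of the 36.

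A second view takes the genes whose levels across the 9 libraries ran closest to each member, by the root mean square difference of centred log2 CPM among 8227 protein-coding genes of at least 5 CPM. Closest to Ifitm1 were Map3k1, a kinase of the JNK and NF-kB pathways (0.0844), and Sc5d, an enzyme of cholesterol synthesis (0.0939). Gpr171 (0.116), Casp12 (0.126) and Upp1 (0.127) followed. Map3k1 averaged 16.8, 113 and 117 CPM in control, inhibition and spermidine libraries. Within the HSC list Cd34 was nearest (0.169), where the median distance of the list was 0.992.

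Ifitm6 was set beside 20 genes of late neutrophils, the granule and surface genes of maturing granulocytes. Under inhibition 18 of the 20 rose, Cxcr2 fell by 2.63 on the log2 scale and Il1b stood at -0.13 (edgeR adjusted p = 0.0819). The median was 5.58 against 0.0205 for all genes, close to the 5.33 of Ifitm6, which had 12 of the 20 above it. Ngp, a granule protein, averaged 110.5 CPM in control, 10519 under inhibition and 3328 with spermidine. S100a8, a subunit of calprotectin, averaged 729, 19332 and 5945 CPM, and its partner S100a9 274, 12158 and 4083 CPM. Their log2 fold changes under inhibition were 6.57 (Ngp, SE 0.036), 4.73 (S100a8, SE 0.031) and 5.47 (S100a9, SE 0.032), with edgeR adjusted p of 2.56e-23 or smaller.

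With spermidine all 20 late neutrophil genes fell against inhibition, with a median of -1.52 against 0.027 for all genes, and their values ran from -1.73 to -0.24. Total-count scaling raised the median of all genes by 0.26 in this comparison, which is more than the smallest of these falls. Ifitm6, at -1.76, lay just below the lowest of them. S100a8 fell by 1.70 (SE 0.027), Ngp fell by 1.66 (SE 0.028) and S100a9 fell by 1.57 (SE 0.027), with edgeR adjusted p of 2.33e-16 or smaller. Against control 17 of the 20 were still higher and 2 lower, with a median of 4.06 against 0.0597 for all genes. Per 1000 counts of the late neutrophil list there were 5.10 ± 0.464 counts of Ifitm6 in control, 7.70 ± 0.129 under inhibition and 6.87 ± 0.204 with spermidine (SD, n = 3 each). This ratio moved 1.51-fold between control and inhibition, while Ifitm6 itself moved 40.3-fold. The B and plasma cell genes also moved far, with mean sums of 89.2, 4797 and 1823 CPM in control, inhibition and spermidine libraries. Ifitm6 was not set against that list, so the ratio is not shown to be particular to late neutrophil genes.

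Genes of early neutrophils moved in the same directions by smaller amounts. All 10, which encode mostly primary granule proteins, rose under inhibition (median 1.59) and fell with spermidine against inhibition (median -0.94). Mpo, the myeloperoxidase gene, averaged 972 CPM in control, 2201 under inhibition and 1049 with spermidine. Ifitm6 lay above all 10 under inhibition and below all 10 for spermidine against inhibition. Per 1000 counts of the early list, Ifitm6 went from 1.70 ± 0.152 in control to 23.7 ± 0.325 under inhibition and 13.9 ± 0.238 with spermidine (SD, n = 3 each). Under inhibition 10 of 14 tested monocyte genes rose and 2 fell (median 0.84), and Ifitm6 lay above every one. Among all genes compared, those nearest to Ifitm6 were S100a9 (0.145), Fpr1 (0.166), Il1r2 (0.193), Lilrb4b (0.200) and Chil3 (0.202). S100a9 and Chil3 belong to the late neutrophil list, and Fpr1, a receptor for bacterial formyl peptides, and Il1r2, the decoy receptor for interleukin-1, are also known from neutrophils. The late neutrophil list moved with Ifitm6 across the groups, and its part in the level of Ifitm6 was not tested.

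**Figure D3:**
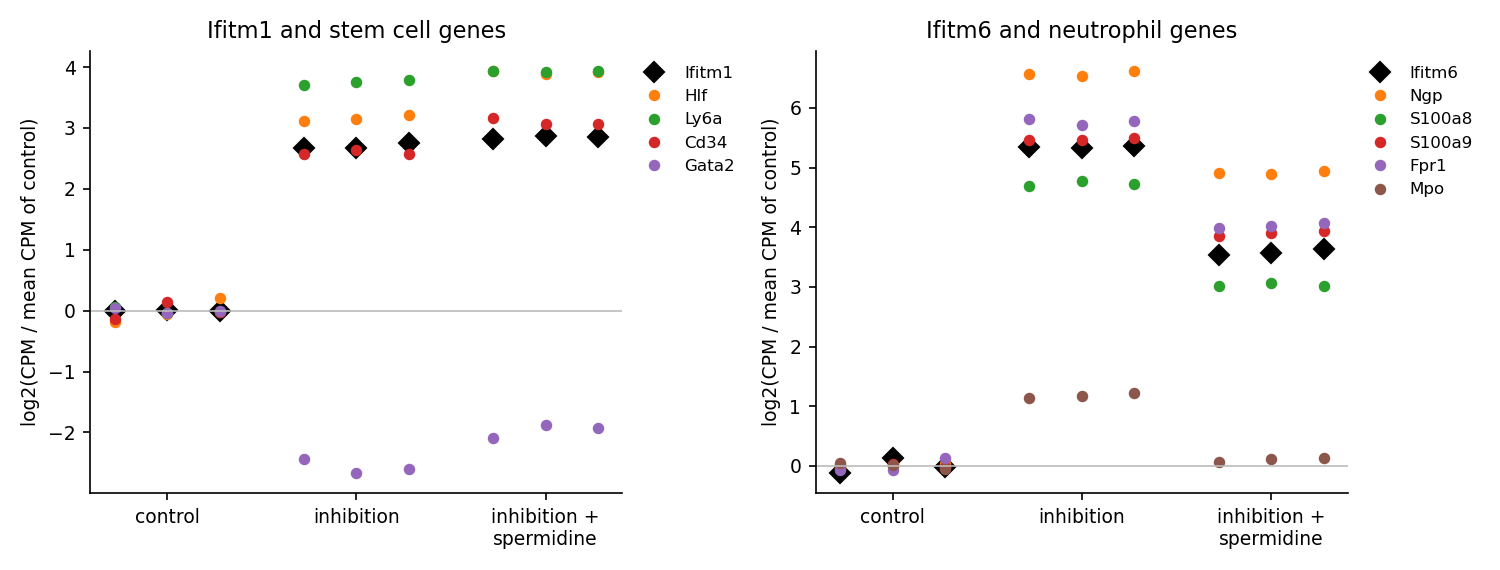
Log2 of CPM over the mean CPM of the control group (vertical axis) in each of the 9 libraries for Ifitm1 with Hlf, Ly6a, Cd34 and Gata2 (left) and for Ifitm6 with Ngp, S100a8, S100a9, Fpr1 and Mpo (right). Ifitm1 (diamonds) runs beside Cd34 and opposite to Gata2, and Ifitm6 (diamonds) runs between S100a8 and S100a9, well above Mpo.

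The interferon pathway did not move as one. Of 9 receptor chains and their kinases, 6 rose and 3 fell under inhibition against control (median 0.611 against 0.0205 for all genes). Ifnar2, a chain of the type I interferon receptor, rose by 0.70 (SE 0.043, edgeR adjusted p = 1.65e-10). Ifngr2, of the interferon gamma receptor, rose by 1.02 (SE 0.083, edgeR adjusted p = 8.13e-09), and the kinase Jak1 rose by 0.61 (SE 0.037, edgeR adjusted p = 1.63e-10). Tyk2, the kinase bound to Ifnar1, fell by 2.57 (SE 0.10, edgeR adjusted p = 3.86e-13), from 25.7 to 4.32 CPM, and stood at 4.58 CPM with spermidine.

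Of 9 transcription factors of the pathway 7 fell under inhibition and the other 2 did not pass, with a median of -0.567. Irf7, the factor that amplifies type I interferon responses, had 32.6, 30.7 and 29.8 CPM in control, 5.47, 5.94 and 5.00 under inhibition, and 5.48, 6.97 and 7.36 with spermidine. It fell by 2.49 (SE 0.094, edgeR adjusted p = 2.22e-13) under inhibition, and its difference between spermidine and inhibition did not pass (0.25, SE 0.11, edgeR adjusted p = 0.0681). Irf3 fell by 1.08 (SE 0.079), Irf1 fell by 0.57 (SE 0.053) and Irf9 fell by 0.49 (SE 0.053), each with an edgeR adjusted p of 2.9e-07 or smaller. Of 7 inhibitors of the pathway 4 rose and 1 fell, the latter being Usp18, itself an interferon-induced gene, at -1.30 (SE 0.081, edgeR adjusted p = 1.98e-10). Ptpn6 (0.97) and Socs3 (1.06) were among those that rose, with edgeR adjusted p of 8.59e-07 or smaller. With spermidine against inhibition 1 receptor or kinase gene rose and 3 fell, 2 transcription factors rose and 1 fell, and 2 inhibitors rose and 2 fell. These splits also moved with scaling, to 6 and 2, 5 and 0, and 5 and 1 by total count.

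Of 43 interferon-induced effector genes other than the Ifitm genes, 12 rose and 23 fell under inhibition, with a median of -0.273 against 0.0205 for all genes. Xaf1, a proapoptotic interferon target, fell by 2.04 (SE 0.046, edgeR adjusted p = 2.55e-16), from 675 to 164 CPM. Isg20, an exonuclease against viral RNA, fell by 1.25 (SE 0.048), Uba7, the activating enzyme for ISG15, fell by 0.96 (SE 0.054), and Rtp4 fell by 0.64 (SE 0.031), with edgeR adjusted p of 5.4e-11 or smaller. Ifitm1 and Ifitm6 lay above all 43, whose highest value was 2.20. Ifitm2 lay above 32 of them and Ifitm3 above 21, so Ifitm3 sat in the middle of the list.

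With spermidine against inhibition 15 effectors rose and 10 fell, median 0.058. The split was 28 to 2 by total count and also 28 to 2 in TPM, so its balance depended on scaling. Samhd1, which limits retroviruses, fell by 0.65 (SE 0.038, edgeR adjusted p = 5.62e-10), and Uba7 rose by 0.58 (SE 0.054, edgeR adjusted p = 1.53e-07). Against control 11 were higher and 24 lower with spermidine, with a median of -0.303 (16 and 19 by total count, 18 and 13 in TPM). Xaf1 stood at 173 CPM with spermidine, at -1.96 (SE 0.046) against control. Nearest to Ifitm2 within this list was Ly6e, another interferon-induced membrane protein gene (0.0496), at 493, 563 and 485 CPM in the 3 groups. Nearest to Ifitm3 was Ifi47 (0.103). The median distances of the list from the 2 members were 0.363 and 0.322. Among all genes the nearest were Ift20, Rab29, Mrpl45, Smdt1 and Ctsd for Ifitm2 (0.0355 to 0.0369) and Gapvd1, Eif3i, S100a1, Sf3b5 and Snrnp25 for Ifitm3 (0.0297 to 0.0341). These lists hold genes with small differences, as the members themselves do.

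**Figure D4:**
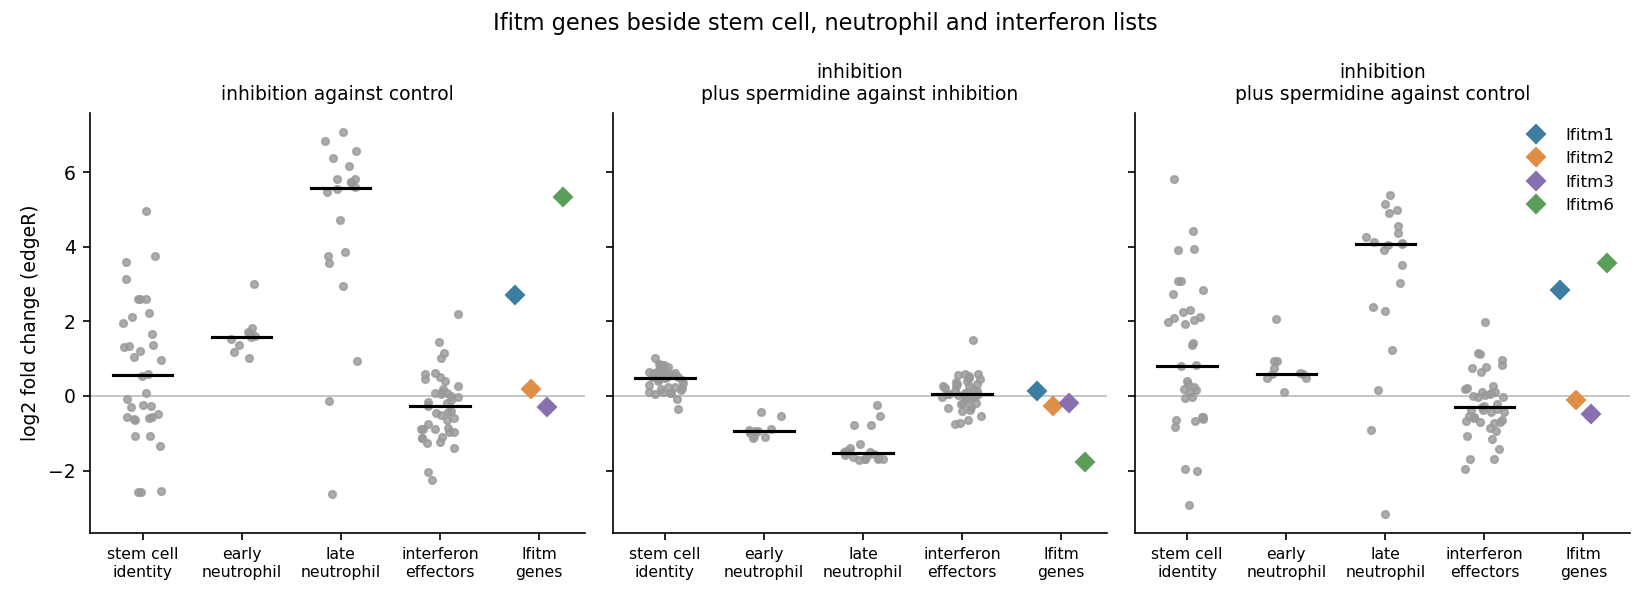
Log2 fold changes (vertical axis) in the 3 comparisons for each tested gene of the HSC identity, early neutrophil, late neutrophil and interferon effector lists (grey points, black line at the median) and for the 4 Ifitm genes (diamonds, bars of 1 SE smaller than the symbol). Ifitm6 lies near the late neutrophil median of 5.58 under inhibition and beneath the list for spermidine against inhibition, Ifitm1 lies above the interferon effectors in both comparisons with control, and Ifitm2 and Ifitm3 lie near 0.

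Of 10 tested genes for enzymes that modify IFITM proteins or for proteins reported to bind them, 3 rose and 5 fell under inhibition (median -0.067). Zdhhc20, an enzyme that adds palmitate to IFITM3, rose by 0.76 (SE 0.042, edgeR adjusted p = 3.56e-11). Nedd4, the ubiquitin ligase that promotes IFITM3 turnover, fell by 1.39 (SE 0.041, edgeR adjusted p = 7.27e-15). Zmpste24, a protease that works with IFITM proteins, rose by 1.21 (SE 0.076, edgeR adjusted p = 2.27e-10) and fell by 0.97 with spermidine against inhibition (SE 0.072, edgeR adjusted p = 8.43e-09). Cd9, a tetraspanin also abundant in megakaryocytes, fell by 1.23 (SE 0.027, edgeR adjusted p = 1.67e-16) under inhibition, where the summed megakaryocyte genes were also lower. With spermidine against inhibition Cd9 fell by a further 0.53 (SE 0.027, edgeR adjusted p = 9.95e-11). The mean megakaryocyte sums of those groups were 195.6 CPM with spermidine and 197.8 under inhibition. The part of those cells in the level of Cd9 was not tested.

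Genes around the cluster were more often lower than higher under inhibition. Within 500 kb of the cluster 46 other genes are listed and 37 were tested. Of these 6 rose and 22 fell, where 36.2% and 36.1% of all genes did, and their median was -0.395 against 0.0205. The nearest tested genes on either side, Pgghg (-0.14, edgeR adjusted p = 0.259) and Pkp3 (0.15, edgeR adjusted p = 0.691), did not pass. Irf7 lies 281 kb from the centre of the cluster. Tmem80 was the lowest, at -3.0 (edgeR adjusted p = 6.11e-19), Polr2l, a subunit of the RNA polymerases, fell by 1.15 (edgeR adjusted p = 5.78e-14), and Taldo1, an enzyme of the pentose phosphate pathway, rose by 0.92 (edgeR adjusted p = 1.79e-13).

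**Figure D5:**
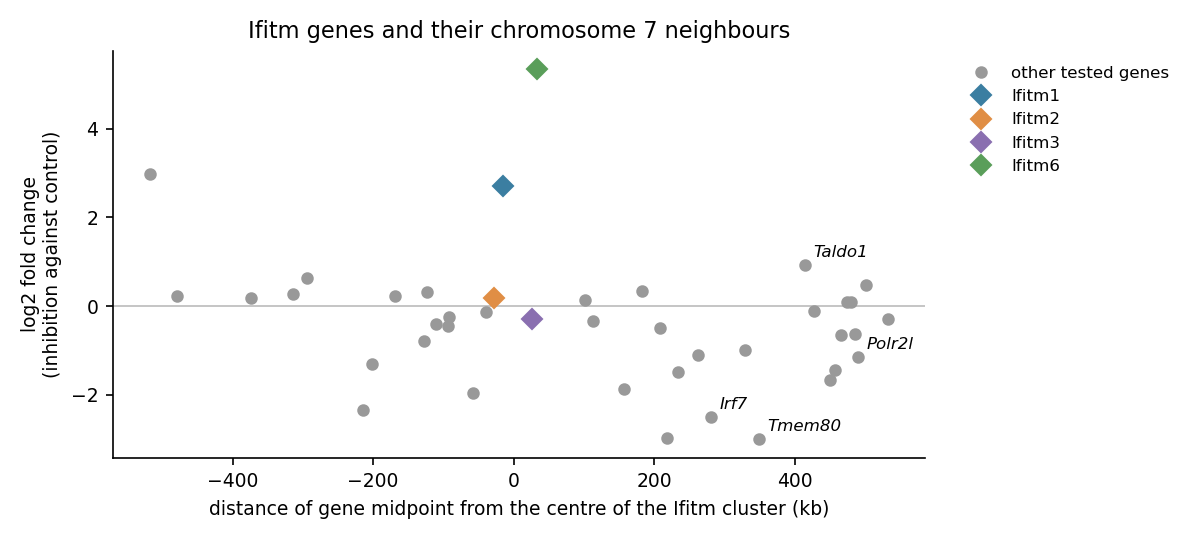
Log2 fold change of inhibition against control (vertical axis) for tested genes within 500 kb of the Ifitm cluster by distance of the gene's midpoint from the centre of the cluster in kb (horizontal axis). Ifitm1 at 2.70 and Ifitm6 at 5.33 (diamonds) stand above most neighbours (grey points), of which 22 of 37 passed the test as lower.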

How the data were processed

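The labels describe polyadenylated RNA of sorted HSCs, enriched by PCR and sequenced as paired reads. Tools named in the submitters' processing notes, with no step given, are STAR 2.6.1d, HTSeq 0.10.0, Trim Galore 0.6.2 and edgeR 3.24.3, and the build is mm10. The authors deposited estimated counts per gene, not scaled between libraries, of which 48.2% were whole to within 1e-06, and the step that made fractional counts is not given in the sources used here. The authors also deposited TPM values, scaled for length and depth. Of 19454 genes 19437 matched GENCODE M21 by identifier.

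Estimated counts were rounded and tested in R 4.3.3 with edgeR 4.0.16 (quasi-likelihood test, 9 libraries in 1 fit, TMM factors of 0.931 to 1.14, default filter, Benjamini-Hochberg threshold 0.05), after a test on simulated data. Counts of 3, a floor given for reading a count of 0, equal 0.117 to 0.184 CPM, and counts of 0 were left at 0 in CPM. The floor covers counting error only, since PCR copies are not independent molecules. Log2 CPM used a prior count of 2.

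The members and gene lists were chosen with earlier results of these data known. Named genes are the members, the other Ifitm genes, at most 4 per list by smallest p, the 5 genes nearest each member, at most 4 neighbours, and Irf7, Hlf, Ly6a, Procr, Ngp, S100a8 and Mpo. Cxcr2, Il1b, Ly6e, Ifi47, Pgghg, Pkp3, and genes named in a comparison other than the one that chose them, were named after their values were seen. 1 gene of the named set is not reported here. No set test was made. Same-numbered libraries of different groups correlated at -0.0365 to 0.0526 in their deviations from group means, none above 0.1, so no pairing was used. Alternatives were total-count scaling, a fit without genes of other cell types, DESeq2 1.42.0, no filter, limma 3.58.1 on log2(TPM + 1) and log2(TPM + 0.1), fits of only the compared groups, a replicate block, and leaving out each library.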

Additional observations from a re-analysis of the deposited data

How the results depend on the processing

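Of 168 alternative values for the 4 members, 157 kept their direction and side of the threshold, 8 reversed, 4 of them no longer past it, and 3 kept their direction but fell short of it. Ifitm1 and Ifitm6 kept both under all 14 alternatives of each comparison (Ifitm1 2.66 to 2.99, 0.092 to 0.41 and 2.79 to 3.39, and Ifitm6 5.27 to 5.49, -1.81 to -1.45 and 3.50 to 4.03, for inhibition against control, spermidine against inhibition and spermidine against control). The other values that changed all involve the spermidine group. For Ifitm2 against control, -0.10 became 0.17 by total count and 0.36 with either TPM pseudocount, and against inhibition, -0.27 became -0.013 by total count and 0.049 with either TPM pseudocount. For Ifitm3 against inhibition, -0.18 became 0.083 by total count and 0.10 with either TPM pseudocount, and against control, -0.48 became -0.052 with either. Genes called for spermidine against inhibition, 4213 higher and 4183 lower, became 7711 and 1793 by total count, 7112 and 1256 with log2(TPM + 1), and 7079 and 1226 with log2(TPM + 0.1). Genes lower with spermidine than in control, 5363, became 2811 and 2751 with those pseudocounts. Total-count scaling moved the median gene by 0.26 in both. With the replicate block Ifitm1 was at 2.70 and Ifitm6 at 5.34 under inhibition, 5191 genes were higher and 5188 lower there, and no member changed direction. No library left out changed the direction of a member, and 249 genes were set aside in the fit without genes of other cell types. The members were picked with these differences known. Their counts against the threshold therefore describe the effect of processing and lend the differences no support. For listed genes, 119 of 1290 alternative counts moved by over 1.5 times, and 1171 did not. Ifitm6 rests on 158 to 213 counts in the control libraries.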

Other observations

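Markers of further cell types moved between the same libraries. All 9 tested T and NK cell genes were higher under inhibition than in control (median log2 fold change 2.95), and 5 were lower and 1 higher with spermidine than under inhibition (edgeR's quasi-likelihood test, Benjamini-Hochberg). Of all tested genes 36.2% were higher in the first comparison, and 28.9% were lower and 29.1% higher in the second. The 11 listed T and NK cell genes summed to 1277 to 1361 CPM in control, 1902 to 2015 under inhibition and 1004 to 1082 with spermidine. Of 12 tested B and plasma cell genes 10 rose under inhibition (median 2.29), and 9 fell with spermidine against inhibition. Of 11 erythroid genes 5 rose and 6 fell under inhibition (median -1.24). All 11 tested megakaryocyte genes fell under inhibition (median -2.09), and with spermidine against inhibition 4 rose and 3 fell. Of 8 tested stroma, endothelium and bone genes 3 rose and 1 fell under inhibition, and they summed to no more than 44.5 CPM in any library. The part of these cells in the levels of the Ifitm genes was not tested.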
